A study of Homo sapiens with 6 samples.

Results

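The 3 vehicle libraries of a 6-library RNA sequencing series were described here, chosen by their titles as the DMSO controls. The cells, labelled as hepatoblasts at day 19 of a hepatocyte differentiation, were given 0.1% DMSO alone and derive from the human embryonic stem cell line H9. The other 3 libraries carry the same cell, stage and tissue labels and were given HFPO-TA, hexafluoropropylene oxide trimer acid; they enter no comparison below. All cells derive from 1 line, and whether the 3 libraries are separate cultures is not labelled, so their spread may be technical. No other treatment is recorded for the controls.

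Hepatoblasts are the fetal progenitors of both hepatocytes and the cells that line bile ducts. They secrete alpha-fetoprotein before albumin takes over as the main plasma protein, and they acquire detoxification, bile and urea functions late, in part after birth. The transcription factors HNF4A, FOXA and CEBPA drive the hepatic genes, while CDX2 is the master regulator of intestinal identity.

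Values are TPM, transcript abundances scaled by transcript length and to a fixed library total, so that levels of different genes can be set side by side. Means are given with the standard deviation (SD) over the 3 libraries, and ranks are those of the mean among 60623 genes. A gene was counted as expressed at 1 TPM or more in all 3 libraries, which held for 14511 genes, or 23.9% of all genes and 64.4% of the protein-coding ones. Each library had 15631 to 15860 genes at this level. The gene lists below were chosen with earlier results of these data known. Their expressed shares, set beside the protein-coding share, are therefore description and no independent test. Between 131 and 148 genes held 50% of the total in a library, and the 10 highest genes took 19.2% ± 0.972.

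The products that mark fetal liver and plasma protein secretion led the libraries, but albumin did not. AFP, alpha-fetoprotein, stood at 71682, 78996 and 79063 TPM in replicates 1, 2 and 3 and ranked highest in each library. ALB, the main plasma protein of adult liver, stood at 101, 129 and 109 TPM, with a mean rank of 1005. The 2 genes did not come near each other in any library: AFP was 710, 614 and 728 times ALB, a mean of 684 ± 61.3 times, so ALB was at 0.147% ± 0.0138 of AFP.

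AFP and ALB are neighbours of common ancestry on chromosome 4 and are read in the same direction. In GENCODE 29 (GRCh38) ALB lies at chr4:73397114-73421412, AFP at chr4:73431138-73456174 and their relative AFM, afamin, at chr4:73481683-73504001. AFM stood at 1.26, 1.89 and 1.15 TPM. Another relative, GC, the vitamin D carrier at chr4:71741693-71804041 on the opposite strand, stood at 0, 0.13 and 0.06 TPM. In every library AFP was the highest, followed by ALB, AFM and GC, with no overlap between neighbours in that order.

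The 150 bases before the start of AFP, ALB and AFM are shown because these 3 adjacent genes differed widely in level. Capitals mark TATAAA, a form of the TATA box at which transcription machinery assembles. Sequences are those of RefSeq (GRCh38.p14), plus strand, at chr4:73436071-73436220, chr4:73404137-73404286 and chr4:73481595-73481744. The RefSeq starts of AFP, ALB and AFM all lie inside the GENCODE 29 genes.
AFP: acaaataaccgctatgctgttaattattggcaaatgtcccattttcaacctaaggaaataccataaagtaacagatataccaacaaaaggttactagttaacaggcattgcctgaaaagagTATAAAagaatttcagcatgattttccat
ALB: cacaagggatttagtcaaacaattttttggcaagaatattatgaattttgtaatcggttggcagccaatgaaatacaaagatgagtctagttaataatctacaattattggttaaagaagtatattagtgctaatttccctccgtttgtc
AFM: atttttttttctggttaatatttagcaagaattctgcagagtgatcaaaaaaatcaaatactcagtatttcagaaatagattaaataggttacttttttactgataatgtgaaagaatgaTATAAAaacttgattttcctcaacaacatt
TATAAA was searched on the gene's strand only. It begins 29 bases before the start in AFP and 30 in AFM and has no exact match in the ALB window. Other forms of the TATA box were not searched for, so ALB is not shown to lack one. Of 35116 promoter windows of 150 bases, 4.54% hold it. These matches describe the letters and say nothing of binding.

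**Figure D1:**
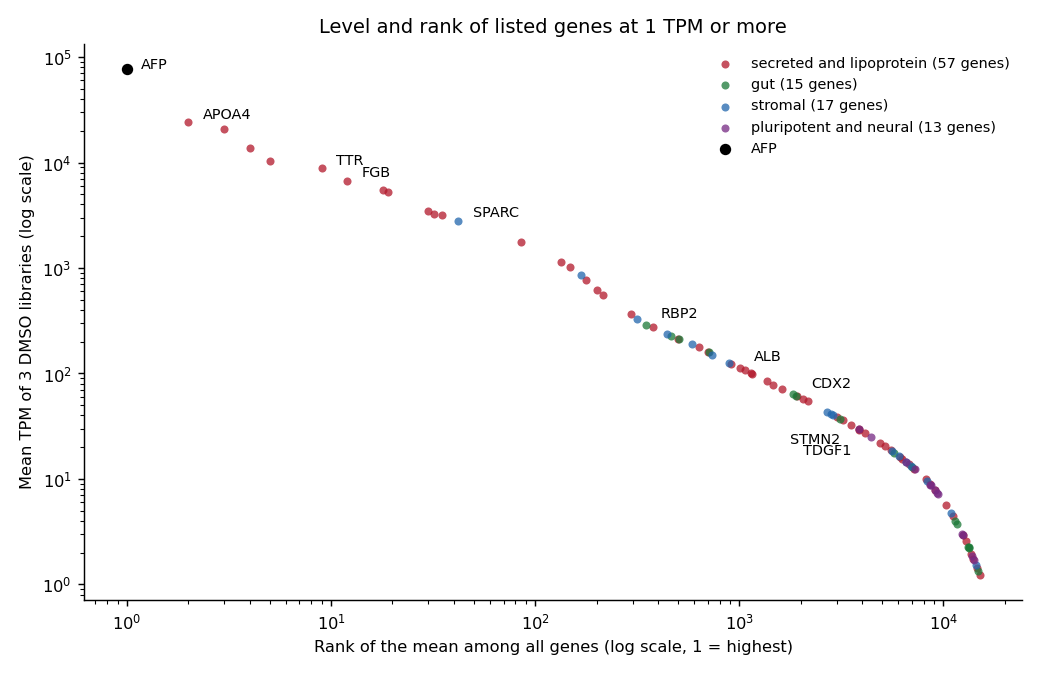
Mean TPM of 3 DMSO libraries (log axis) against rank among all genes (log axis) for AFP and for members of 6 lists at 1 TPM or more, 1 point per gene. AFP stands alone at the top, apolipoproteins follow at ranks 2 to 5, and ALB lies at rank 1005, below the gut gene RBP2 at rank 349.

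Apolipoproteins, which carry lipids in plasma, filled ranks 2 to 5. The highest was APOA4, an apolipoprotein made chiefly by the human small intestine, at 21728, 25443 and 25304 TPM. APOA1, the main protein of high-density lipoprotein, stood at 19027, 21193 and 21518 TPM. The value of APOA4 lay above that of APOA1 in every library, and the ranges of the 2 did not overlap. Their cluster neighbour APOC3 stood at 13756 ± 1562 TPM and APOA5, the remaining gene of that cluster on chromosome 11, at 18.8 ± 2.82 TPM.

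Of the 17 lipoprotein genes listed, 15 were expressed, or 88.2% beside 64.4% of protein-coding genes. At 100 TPM or more in all 3 libraries lay 8 of them, where 5.19% of protein-coding genes were. APOE reached 10344 ± 633 TPM and APOA2 5287 ± 666. APOB, the scaffold of very low-density particles, stood at 776 ± 25.7 TPM and MTTP, which loads it with lipid, at 107 ± 12.1 TPM. LPA and APOF, typical of adult liver, were not expressed by the threshold, at 0.62 ± 0.17 and 0.39 ± 0.19 TPM. The list took 7.69% ± 0.639 of all TPM.

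Of the secreted hepatocyte proteins 42 of 50 were expressed, or 84% beside 64.4% of protein-coding genes, with a median over the list of 37.2 TPM. TTR, the thyroid hormone carrier, led at 8646, 9096 and 8719 TPM. FGB, a fibrinogen chain, followed at 6105, 7091 and 7015 TPM. SERPINA1, the elastase inhibitor alpha-1-antitrypsin, stood at 4776, 5896 and 5946 TPM. Each of these 3 lay above ALB in every library.

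Many other plasma proteins lay far below these. Transferrin, TF, stood at 55.0, 131 and 112 TPM, and haptoglobin, HP, at 71.8 ± 5.25 TPM. TF overlaps a gene on the same strand at 82.4 TPM, so its level is uncertain. The clotting factor gene F2, prothrombin, stood at 54.4 ± 2.10 TPM, F7 at 22.0 ± 2.37 and F9 at 0.16 ± 0.14. Thus clotting genes of 1 pathway spanned levels on both sides of the threshold. CRP, APCS, C9 and HAMP, which encode acute phase proteins, a complement component and the iron hormone hepcidin, were listed at 0 in all 3 libraries.

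Among genes typical of fetal tissue, 14 of 14 were expressed, or 100% beside 64.4% of protein-coding genes. GPC3, an oncofetal heparan sulfate proteoglycan, stood at 1596, 1760 and 1688 TPM, and DLK1, a Notch-related membrane protein of hepatoblasts, at 166, 220 and 214 TPM. The RNA-binding genes IGF2BP2, IGF2BP3 and IGF2BP1 stood at 57.5 ± 4.10, 23.1 ± 1.18 and 22.0 ± 1.40 TPM. LIN28B, which blocks let-7 maturation, stood at 7.25 ± 0.17 TPM. At the low end were H19, an imprinted noncoding RNA, at 3.18, 2.39 and 2.33 TPM, and CYP3A7, the main fetal liver cytochrome P450, at 2.73, 2.53 and 2.39 TPM.

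Genes tied to the hepatoblast label stood at very different levels. HNF4A, the central hepatocyte factor, stood at 47.0, 47.3 and 53.5 TPM, CEBPA at 68.0, 65.9 and 68.2 and CREB3L3, a membrane-bound factor of liver and gut, at 60.9, 60.2 and 59.2 TPM. CDX2 stood at 72.9, 54.2 and 57.7 TPM, above every value of HNF4A, and its range overlapped those of CEBPA and CREB3L3. PROX1, HHEX and ONECUT1, factors of early liver growth, lay at 0.62 ± 0.14, 0.74 ± 0.12 and 0.97 ± 0.23 TPM and did not pass the threshold. ONECUT1 missed it only in replicate 1, at 0.72 TPM. TBX3, a factor on the fetal list, was expressed at 8.98, 9.3 and 10.48 TPM. The cells are named here by their treatment rather than as hepatoblasts, and whether the label holds was not tested.

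Of the 23 hepatic transcription factors listed, 16 were expressed (69.6%, near the protein-coding share), 0 reached 100 TPM in all libraries, and the median was 9.83 TPM. GATA4 stood at 40.7 ± 4.31 TPM, PPARA, the fatty acid receptor, at 21.6 ± 3.69 and GATA6 at 21.6 ± 1.11. FOXA3, FOXA1 and FOXA2 stood at 15.4 ± 1.31, 9.83 ± 0.32 and 8.03 ± 0.64 TPM, in that order without overlap between neighbours. The nuclear receptors divided: NR1I3 (CAR) stood at 7.91 ± 0.68 TPM, while NR1H4 (the bile acid receptor FXR), NR0B2 (SHP) and NR1I2 (the drug sensor PXR) stood at 0.58 ± 0.15, 0.25 ± 0.22 and 0.21 ± 0.17 TPM. HNF4A, GATA6, CEBPA and NR1I3 each overlap a gene on the opposite strand, at 26.0, 16.0, 30.8 and 9.36 TPM. With the strand setting unknown their values are uncertain. For NR1I3 the overlapping gene had the higher mean.

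**Figure D2:**
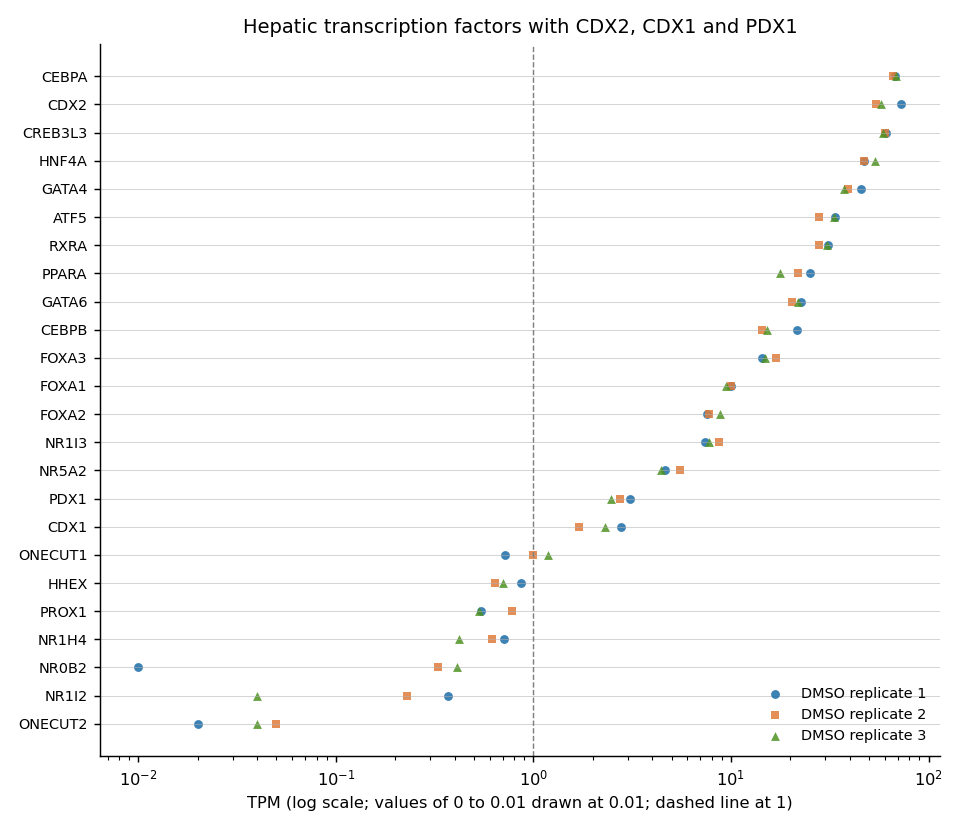
TPM (log axis) of 21 hepatic transcription factors and of CDX2, CDX1 and PDX1 in each DMSO library, ordered by mean. CDX2 lies among the highest hepatic factors, and 7 hepatic factors lie below the dashed line at 1 TPM in at least 1 library.

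Several gut genes reached high levels in a culture labelled as liver, with 4 of 21 at 100 TPM or more in all 3 libraries, where 5.19% of protein-coding genes were. By the threshold 15 of 21 were expressed, or 71.4%, near the 64.4% of all protein-coding genes, so the count itself does not set the list apart. RBP2, a retinol carrier of the small intestine, stood at 277, 294 and 299 TPM. VIL1, the microvillus protein villin, stood at 198, 214 and 221 TPM, and LCT, the brush border lactase, at 171, 149 and 158 TPM. Each of these 3 genes exceeded ALB in every library. CDH17, the liver-intestine cadherin, stood at 64.1 ± 7.96 TPM and ANPEP, a brush border peptidase shared with bile canaliculi, at 229 ± 27.3 TPM.

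The gut list was not uniform. Some secretory and stem cell genes were low: MUC2, the goblet cell mucin, was at 0.01, 0 and 0 TPM, OLFM4 at 0, 0.03 and 0.06, and LGR5 at 0.56 ± 0.06 TPM. The trefoil peptide gene TFF3 was expressed at 3.44, 5.33 and 3.33 TPM, and the mucin gene MUC13 at 13.1 ± 1.83 TPM. SI, sucrase-isomaltase, which appears with mature enterocytes, stood at 0.95 ± 0.20 TPM and FABP2, the intestinal fatty acid binding protein, at 1.34 ± 0.18. CDX1 stood at 2.25 ± 0.53 TPM. Genes of other endoderm organs were mostly low, with 3 of 14 expressed, or 21.4%, below the protein-coding share. These were TFF2 and TFF1, gastric trefoil peptides, at 25.6 ± 6.95 and 14.1 ± 5.13 TPM, and PDX1, the pancreatic and duodenal factor, at 2.76 ± 0.31 TPM. NKX2-1 (lung and thyroid), PTF1A (pancreas), INS and GCG were listed at 0.

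Of the bile duct and general epithelial genes 14 of 15 were expressed, or 93.3% beside 64.4% of protein-coding genes. EPCAM, an adhesion molecule of progenitors, stood at 643, 709 and 643 TPM and KRT19 at 603, 549 and 581 TPM, both above ALB. The keratins of simple epithelia KRT8 and KRT18 stood at 777 ± 43.0 and 536 ± 20.6 TPM. KRT7 was lower at 41.4 ± 5.21 TPM, and SOX9, the duct factor, stood at 3.86 ± 0.20 TPM. PKHD1, a cilium gene of ducts, had values of 13.8, 0.06 and 3.86 TPM and was not counted as expressed.

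Markers of other cell types were found at very different levels, and in bulk RNA a few cells with much RNA cannot be told apart from many with little. Stromal genes were the highest, with 17 of 22 expressed, or 77.3% beside 64.4% of protein-coding genes. Their summed level was 5744, 4253 and 4644 TPM, most of it from SPARC. SPARC, a matrix glycoprotein also made by fetal epithelia, stood at 3295, 2457 and 2633 TPM and COL3A1 at 1061, 696 and 794 TPM, while TWIST1, PRRX1 and WT1 were at 0.58 ± 0.12, 0.37 ± 0.59 and 0.32 ± 0.11 TPM. Of 15 endothelial genes 9 were expressed, or 60%, near the protein-coding share. KDR, a VEGF receptor, stood at 30.4 ± 7.84 TPM, while VWF stood at 0.30 ± 0.15 TPM and CLEC4M, of liver sinusoids, at 0.

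Blood genes were nearly absent, with 1 of 19 expressed (5.26%): CD163, a macrophage receptor, at 1.94 ± 0.22 TPM. PTPRC, the pan-leukocyte gene, stood at 0, 0 and 0.02 TPM, and GATA1, HBA1, HBA2, HBB and HBG1 were listed at 0. Expressed neural genes numbered 6 of 20, or 30%, below the 64.4% of protein-coding genes. They were led by STMN2 at 31.9, 27.3 and 29.5 TPM and the tubulin TUBB3 at 14.6 ± 1.19 TPM. The neural factors SOX1 and NEUROD1 were listed at 0 and PAX6 stood at 0.22 ± 0.22 TPM.

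The core pluripotency factors were low: POU5F1 stood at 0.60, 0.78 and 0.33 TPM, SOX2 at 0.40, 0.20 and 0.16 and NANOG at 0, 0.03 and 0. Some other genes of the pluripotent list were expressed, 7 of 17 in all, or 41.2%, below the 64.4% of protein-coding genes. TDGF1, a co-receptor of the growth factor NODAL, stood at 23.4, 25.1 and 26.8 TPM. DPPA4, ZFP42 and LIN28A stood at 12.4 ± 0.79, 8.84 ± 0.35 and 7.21 ± 0.15 TPM. Each library thus held these associated genes at levels over 6 TPM beside core factors under 1 TPM.

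**Figure D3:**
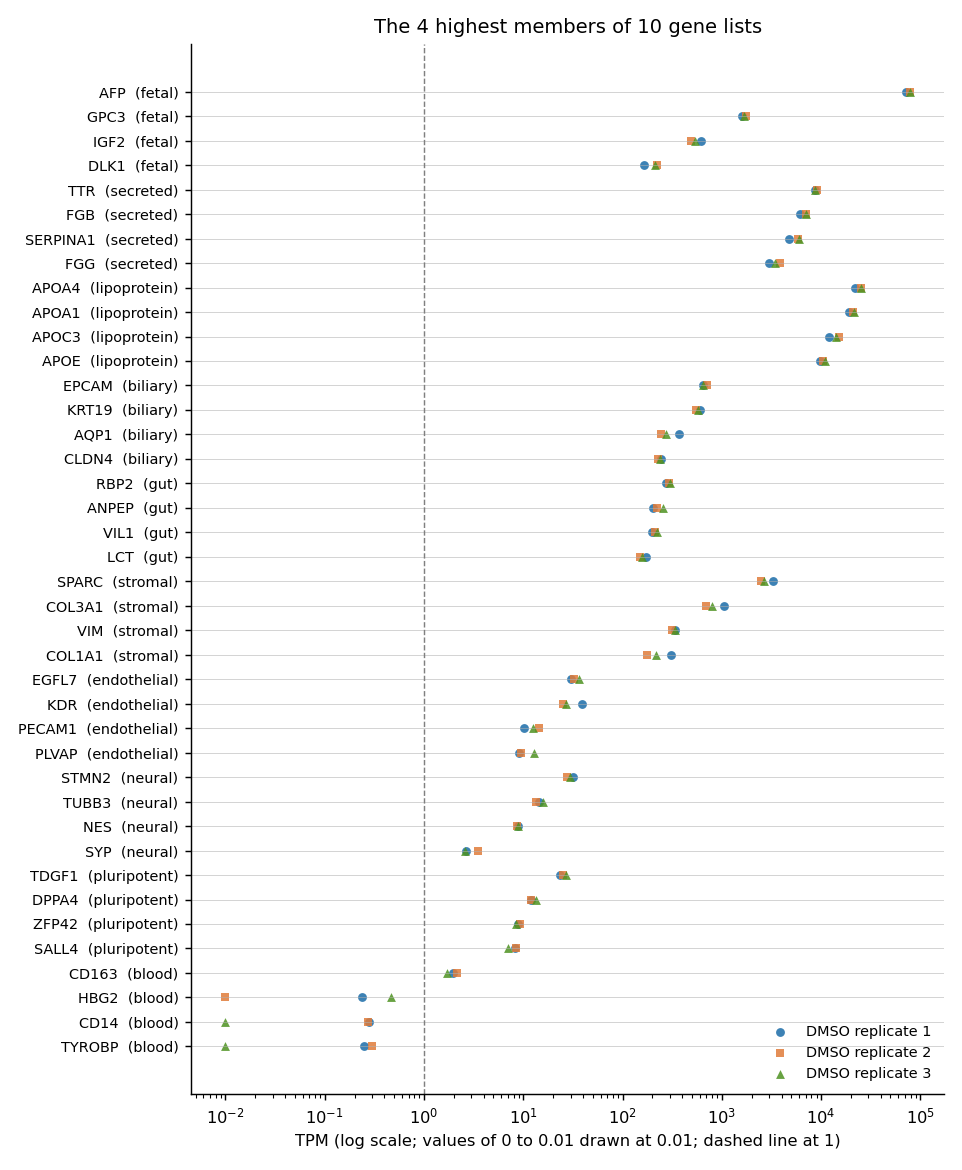
TPM (log axis) of the 4 highest members of each of 10 lists in each DMSO library; the dashed line marks 1 TPM. AFP stands highest, the lipoprotein genes follow, the gut, biliary and stromal genes lie between 149 and 3295 TPM, and 3 of the 4 blood genes lie below 1 TPM.

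Adult drug-metabolising genes were split between expressed and barely listed members, with 15 of 30 phase I genes expressed, below the protein-coding share. CYP1A1, an inducible cytochrome P450, stood at 95.0, 98.8 and 104 TPM, and CYP3A5 at 21.0, 20.3 and 20.3 TPM. CYP2A6 stood at 6.06 ± 0.57 TPM. Several major adult forms lay under 1 TPM: CYP2E1 at 0.75 ± 0.21, CYP2C8 at 0.61 ± 0.13, CYP3A4 at 0.46 ± 0.24 and CYP1A2 at 0.05 ± 0.03 TPM. CYP3A4, CYP3A5 and CYP3A7 lie side by side on chromosome 7 between 99648194 and 99784265, and there CYP3A5 was the highest in every library.

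The class I alcohol dehydrogenases ADH1A and ADH1B were listed at 0 and ADH1C stood at 0, 0.12 and 0 TPM, whereas their chromosome 4 neighbours ADH4 and ADH5 stood at 8.15 ± 1.72 and 119 ± 5.61 TPM. Of the phase II genes 14 of 18 were expressed, or 77.8%, beside 64.4% of protein-coding genes. GSTP1, a glutathione transferase of fetal liver and ducts, stood at 958, 1019 and 1070 TPM and GSTA1, an adult hepatocyte form, at 397, 561 and 479 TPM. GSTA2 stood at 858 ± 108 TPM; GSTA1 and GSTA2 are near-identical copies, so the split between them is uncertain. UGT1A1, which conjugates bilirubin, stood at 2.69 ± 0.52 TPM, and UGT2B15 and UGT2B17 were under 0.1 TPM.

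Bile acid synthesis and transport showed present and missing steps, with 20 of 30 genes expressed, or 66.7%, near the protein-coding share. CYP7A1, the entry enzyme of the main synthesis route, was at 0, 0 and 0.03 TPM, while CYP27A1, the entry enzyme of the other route, stood at 34.3, 34.2 and 33.1 TPM. SLC10A1 (NTCP), the main bile acid importer, stood at 21.6 ± 5.60 TPM, lowest in replicate 1 at 15.2. The canalicular exporter ABCB11 (BSEP) was at 0.06 ± 0.03 TPM and the hepatic importers SLCO1B1 and SLCO1B3 at 0.03 ± 0.05 and 0.05 ± 0.06, against 213 ± 7.13 TPM for SLCO2B1. The paired exporters SLC51A and SLC51B, prominent in ileum, stood at 50.04 ± 2.12 and 13.7 ± 0.35 TPM.

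In nitrogen and amino acid metabolism 23 of 27 genes were expressed, or 85.2% beside 64.4% of protein-coding genes. GLUL, glutamine synthetase, was the highest at 2130, 1892 and 1974 TPM. The urea cycle enzymes were uneven, with CPS1 and ASS1 at 98.4 ± 14.2 and 87.8 ± 2.19 TPM, ASL at 21.1 ± 2.35, OTC at 3.66 ± 0.46 and ARG1, the last step, at 0.64, 1.64 and 1.72 TPM. ARG1 overlaps a gene on the opposite strand at 15.4 TPM, so its value is uncertain. TAT, a tyrosine-degrading enzyme that appears around birth, stood at 0.34 ± 0.06 TPM. Of 13 genes of hepatic glucose metabolism 12 were expressed, or 92.3%, also above the protein-coding share. PCK1, which commits carbon to glucose synthesis, stood at 184, 128 and 146 TPM, and PPARGC1A, a fasting coactivator, at 1.32 ± 0.23. GYS2, the liver glycogen synthase, stood at 0, 0.03 and 0 TPM.

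Pairs of an adult-type gene and its fetal or general counterpart gave ratios that differed widely. IGF1 was at 0.143% ± 0.0535 of IGF2, the fetal growth factor (0.76 ± 0.22 and 546 ± 61.0 TPM). INS-IGF2, a readthrough gene that overlaps IGF2 on the same strand, stood at 1583 ± 188 TPM, so the level of IGF2 itself is uncertain. PKLR, the liver pyruvate kinase, was at 2.83% ± 0.953 of PKM, and SLC2A2, the hepatocyte glucose carrier, at 8.002% ± 3.23 of SLC2A1. GSTA1 was at 47.1% ± 7.09 of GSTP1. That ratio rests on the uncertain split between GSTA1 and its near-identical copy GSTA2, which stood at 858 ± 108 TPM.

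In 2 of the pairs the adult-type gene was the higher. MAT1A, which makes S-adenosylmethionine in adult liver, was at 1.28, 1.32 and 1.31 times MAT2A, and PYGL, the liver glycogen phosphorylase, at 1.39, 1.36 and 1.25 times PYGB, above its counterpart in each library. MAT2A and PYGB each overlap a gene on the opposite strand, at 27.9 and 91.4 TPM. With the strand setting unknown, both ratios are uncertain. CYP3A4 was at 0.234, 0.0711 and 0.230 times CYP3A7, with CYP3A4 under 1 TPM in every library. GYS2 was too low beside GYS1 for a ratio in replicates 1 and 3, and both ADH1B and ADH1A were listed at 0.

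**Figure D4:**
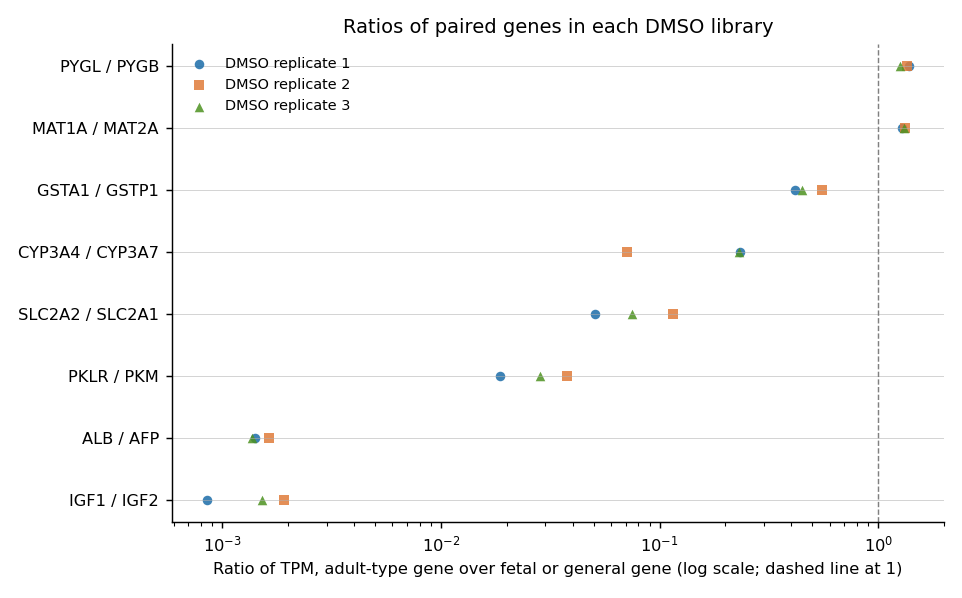
Ratio of TPM of an adult-type gene to its fetal or general counterpart (log axis) in each DMSO library, for 8 pairs with values above 0. IGF1 over IGF2 and ALB over AFP lie below all other pairs drawn, while MAT1A over MAT2A and PYGL over PYGB lie above 1 in all 3 libraries. GSTA1 over GSTP1 rests on an uncertain split between GSTA1 and GSTA2. MAT2A and PYGB each overlap a gene on the opposite strand, so their ratios are uncertain.

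Proliferation genes were low but present, 15 of 16 expressed, or 93.8% beside 64.4% of protein-coding genes. PCNA stood at 32.7 ± 1.54 TPM and TOP2A at 8.46, 6.70 and 6.77. MKI67, at 0.76 ± 0.11 TPM, was the member that did not pass the threshold.

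The 3 libraries were alike over the 14511 expressed genes. Pearson correlations of log2 TPM across genes were 0.982 to 0.986, and 1.92% to 2.63% of genes differed by 2 times or more between a pair of libraries. The median coefficient of variation was 10.3%, and it fell with level, from 17.9% at means of 1 to 3 TPM to 3.64% at 1000 TPM or more. Just inside the threshold among listed genes were DES, lowest at 1.01 TPM, and CYP7B1 at 1.03, and just outside were ABCG8 at 0.96 and EMCN at 0.80.

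Replicate 1 stood somewhat apart, and the column names part it from replicates 2 and 3 by a letter that the labels do not explain. In replicate 1, 359 genes lay 1.5 times or more above both other libraries, against 176 and 154 genes in replicates 2 and 3. On the low side replicate 1 did not stand apart: 180 genes lay as far below both others, against 260 and 187. These counts used values without rescaling. Genes of several hepatic lists lay lower there. Of the 42 expressed secreted genes 32 were lowest in replicate 1 and of the 15 lipoprotein genes 13, where 22.9% of all expressed genes were. Their median log2 ratios of replicate 1 to the mean of the others were -0.26 and -0.22, beside 0.08 over all expressed genes. The same held for 16 of 23 urea and amino acid genes, 10 of 14 phase II genes, 8 of 12 glucose genes and 10 of 20 bile genes. AHSG, fetuin-A, stood at 1322, 2043 and 1933 TPM.

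Stromal genes lay on the other side, with 12 of 17 highest in replicate 1 where 50% of all expressed genes were, and a median log2 ratio of 0.26. COL1A1 stood at 310, 175 and 219 TPM and COL1A2 at 255, 140 and 174 TPM. TAGLN, a contractile protein, went the other way at 104, 135 and 142 TPM. Of 10 trophoblast and epidermal genes 4 were expressed, or 40%, below the 64.4% of protein-coding genes. All 4 were highest in replicate 1, with and without rescaling, and their median log2 ratio was 0.60. Endothelial genes were lowest in replicate 1 in 7 of 9 cases, with a median of -0.33, although KDR was highest there at 39.4 TPM. Fetal genes (median 0.02), gut genes (-0.01), hepatic factors (0.02) and pluripotency genes (-0.02) had medians closer to the value for all genes. With values rescaled by the median of ratios, replicate 1 was lowest for 35 of the 42 secreted and 14 of the 15 lipoprotein genes (35.5% of all genes). It was then also lowest for 18 of the 23 urea and amino acid genes, 15 of the 20 bile genes, 10 of the 16 hepatic factors, 7 of the 14 fetal genes and 4 of the 7 pluripotency genes, and highest for 10 of the 17 stromal genes (35.2% of all genes). Whether the stromal level bears on the secreted values was not tested.

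**Figure D5:**
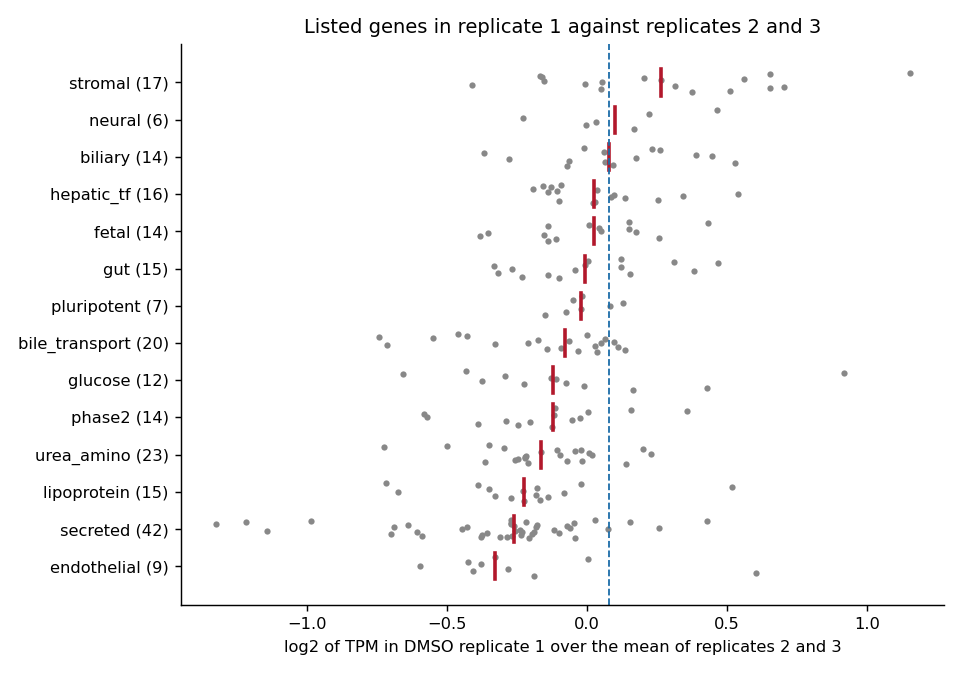
Log2 ratio of TPM in DMSO replicate 1 to the mean of replicates 2 and 3 for expressed members of 14 lists (grey points, number in brackets), with list medians (red) and the median of all 14511 expressed genes (dashed, 0.08). Secreted and lipoprotein medians lie at -0.26 and -0.22 and the stromal median at 0.26. Among the lists not drawn is that of trophoblast and epidermal genes, with a median of 0.60.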

How the data were processed

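RNA of 3 DMSO libraries was analysed. The authors deposited 1 value per gene for 60623 genes. Columns are headed FPKM but sum to 995849 to 996186, so they were read as TPM scaled by the authors. Per the submitters' processing notes, HISAT, Bowtie2, RSEM and GRCh38.p13 were used, with no version or role named. Strand setting, kit and annotation: not given in the sources used here. Values of named genes that overlap another gene at 10% or more of their own mean are therefore uncertain. Besides those marked in the text, these include IGF2BP3, KRT8, KRT18, CYP2A6 and SLC51A. Since a TPM column holds no read total, depth is unknown and intervals for counting error were left out.

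Means, SDs, ranks, ratios and coefficients of variation were computed in Python 3.11.15 with pandas 2.3.3, without pseudocount, and tested on simulated data. With 1 group, no significance test was run. An expressed gene had 1 TPM or more in all 3 libraries. Gene types and positions came from GENCODE 29 (58516 identifiers found), promoters from RefSeq. Figures used matplotlib 3.10.9.

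The members and the 22 lists (412 genes found, 1 symbol not; 272 expressed) were chosen with earlier results of these data known. The text names the 20 highest genes where biology attaches to them, the highest 4 and the barely listed (under 0.1 TPM) members of lists, pairs, the 6 most variable genes and genes beside the threshold; others were chosen after their values were seen. Some genes that this rule would name are not reported here. Alternatives covered the threshold, pseudocount, total, scaling and each library left out.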

Additional observations from a re-analysis of the deposited data

How the results depend on the processing

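Counts of expressed genes ran from 10137 (5 TPM in all 3) to 19685 (0.1 TPM), within 1.5 times of 14511, and from 14827 to 14875 with 1 library left out. ALB stayed between 0.139% and 0.152% of AFP. The AFP share was 8.21% of a total without mitochondrially encoded genes, and the lipoprotein share 8.34% of a total without AFP. The median coefficient of variation was 8.01% for genes with a mean of 10 TPM or more and 7.34% to 9.26% with 1 library left out. Ratios of low genes moved with a pseudocount of 1: CYP3A4 was then at 41.0% of CYP3A7 and IGF1 at 0.327% of IGF2. Rescaling for replicate 1 was chosen after the data were seen and turned no sign of the 3 medians recomputed (secreted -0.35, lipoprotein -0.31, stromal 0.18). Of the other alternatives, 14 of the list counts moved by over 1.5 times, all with a threshold of 0.1 or 5 TPM, and 96 did not; gut genes numbered 9 and endothelial genes 5 at 5 TPM. Of the ratios 7 moved by more than the replicate spread and 65 did not. No paired analysis was possible because 1 group was described and no test was run.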

Other observations

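Gene families outside the lists, chosen after their values were seen, held further position and epithelial genes. Of 39 HOX genes 6 were expressed, a smaller share than the 64.4% of all protein-coding genes. All 6 lay in the HOXB cluster, led by HOXB2 at 19.7, 14.6 and 18.5 TPM. The highest HOXA, HOXC and HOXD genes had means of 0.77, 0.40 and 0.03 TPM. HAND1, a factor of lateral mesoderm and extraembryonic tissue, stood at 137, 133 and 144 TPM, above HNF4A and CDX2 in every library. GATA5, an endoderm factor, stood at 21.8 ± 2.06 TPM beside GATA4 and GATA6.

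Basement membrane genes were high. Of 12 laminin genes 11 were expressed, a larger share than the 64.4% of all protein-coding genes. LAMB1 stood at 531 ± 56.7 TPM and LAMA1, an embryonic chain, at 177 ± 15.2. The collagens COL4A2 and COL4A1 stood at 302.7 ± 39.02 and 290 ± 26.02 TPM. Of 24 claudins, which seal tight junctions, 13 were expressed, a smaller share than the 64.4% of all protein-coding genes. CLDN6, typical of embryonic epithelia, stood at 131, 132 and 135 TPM, and CLDN4 and CLDN7 at 236 ± 9.001 and 160 ± 4.86 TPM.

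Among 7938 genes with a mean of 10 TPM or more, genes named only by clone or locus left out, the 6 with the largest spread were small RNA genes listed at 0 in 2 of the 3 libraries: RNVU1-8, SNORD94, SNORA75, SNORA36A, RNU2-24P and RNU2-11P. SNORA75 stood at 105, 0 and 0 TPM and RNVU1-8 at 0, 107 and 0 TPM. Among expressed protein-coding genes at 100 TPM or more the widest spreads included SLC2A1, the general glucose carrier, at 277, 142 and 193 TPM, and PDPN, podoplanin, at 345, 205 and 240 TPM, both highest in replicate 1 like the collagens. The acute phase gene ORM1 stood at 396, 698 and 587 TPM and the metal-binding MT2A at 259, 411 and 299 TPM, both lowest there.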
